A study of Caenorhabditis elegans with 12 samples.

Results

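The levels of mature miRNA arms were compared between a pair of edited mbl-1 lines of the nematode Caenorhabditis elegans, called here by the codes of their count columns, the ME line and the SH line. All 370 features with a registered miRNA name, of 471 in the deposited table, were taken as members, and 6 of the 12 libraries of the series belong to these lines, 3 each. Per the series' design text, 1 isoform line makes a short and the other a long form of MBL-1, and the genotypes given for them are mbl-1(syb4318) and mbl-1(syb4345). No label ties a code to an allele or to an isoform length, so neither is assigned. The count columns read CR_MED and CR_SH, and the authors' deposited tables use ME and SH. Over the features those tables list, the ratios to wild type from the count columns correlated with those in the authors' deposited tables at 0.9998 for CR_MED with ME (41 features) and 0.9996 for CR_SH with SH (12 features). With the codes exchanged the values were 0.481 and 0.855. The wild type N2 and the mbl-1(tm1563) mutant, 3 libraries each, are given beside them, where the tm1563 columns were assigned by inference, since their headers give the gene alone with no allele or code. All animals were bleach-synchronized, fed OP50 bacteria at 20 °C and harvested whole as L4 larvae. Each line is a single allele, and the number of animals per library is not given in the sources used here. In whole-animal RNA, fewer cells of a type and less of a miRNA per cell cannot be told apart. The mbl-1 transcript was not measured in these small RNA libraries, so the genotypes have no check of their own here.

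MBL-1 is the worm member of the Muscleblind family, zinc-finger proteins that bind structured RNA and are known mainly as regulators of alternative splicing. In mammals a Muscleblind protein has also been found to bind the loop of a miRNA precursor and to affect its processing by Dicer. A miRNA precursor is a hairpin that Dicer cuts into a duplex. Usually 1 strand, the guide, is kept in Argonaute and represses target mRNAs, and the other, the passenger, is mostly degraded. Here the arm of a hairpin with the lower mean count over the 12 libraries is called the minor arm and its partner the major arm, by counts alone. The sequences are not shown, since no table of miRNA sequences was used here.

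Totals lay between 6946205 and 8066278 counts per library in the ME line and between 7099111 and 7512188 in the SH line. A floor of 3 counts stood at 0.372 to 0.432 CPM (counts scaled to the library total) in these 6 libraries, and the CPM values below use TMM-scaled totals. ME library 1 stood apart in its most abundant arms. There miR-70-3p made up 28.8% of counts against 18.2 to 20.2% in the other ME libraries, and miR-1-3p, the miRNA of body wall and pharynx muscle, made up 12.5% against 21.3 to 23.3%. The series' design text calls the libraries of a genotype biological replicates without naming separate cultures. The p-values thus set a difference against the spread between libraries, which need not be that between cultures. The fit estimated that spread from all 12 libraries of the 4 genotypes.

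Between the lines 36 arms differed, of 250 features tested (14.4%). In the ME line 27 were higher (10.8%) and 9 lower (3.6%), by edgeR's quasi-likelihood test at a Benjamini-Hochberg adjusted p under 0.05 over all features tested. All 36 were among the 235 named arms tested, and of the 15 predicted features tested edgeR called 0, with 1 at an unadjusted p under 0.05 and 0 by DESeq2. The arms lower in ME were each the major or the only arm of their precursor in the table and differed by 1.67- to 5.3-fold. They included miR-251 and miR-252-5p, both members of their family. Of the 27 higher in ME, 20 were minor arms, and they differed by 1.47- to 4.85-fold over all 27. The lines' libraries were fully separated for 76 of 250 features (30.4%) and for 35 of the 36 arms called, miR-42-5p being the exception.

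The split of calls moved with the scaling. Against 27 higher and 9 lower here, the same test gave 12 and 12 with RLE size factors and 10 and 8 with unscaled library totals. DESeq2, which differs in both the size factors and the test, gave 22 and 21. Over all features tested, the median difference (log2, ME minus SH) was 0.13 with TMM and -0.03 with RLE. Counts of calls rested on single libraries too, with 12 calls without SH library 1, 17 without ME library 3 and 21 without ME library 1. No called arm changed direction in any of the 14 alternative settings that tested it, and 10 passed the threshold in all of them, of which 7 were lower (miR-246-3p, miR-359, miR-76-3p, miR-252-5p, miR-358-5p, miR-790-5p and miR-245-3p) and 3 higher (miR-83-5p, miR-61-5p and miR-44-5p).

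**Figure D1:**
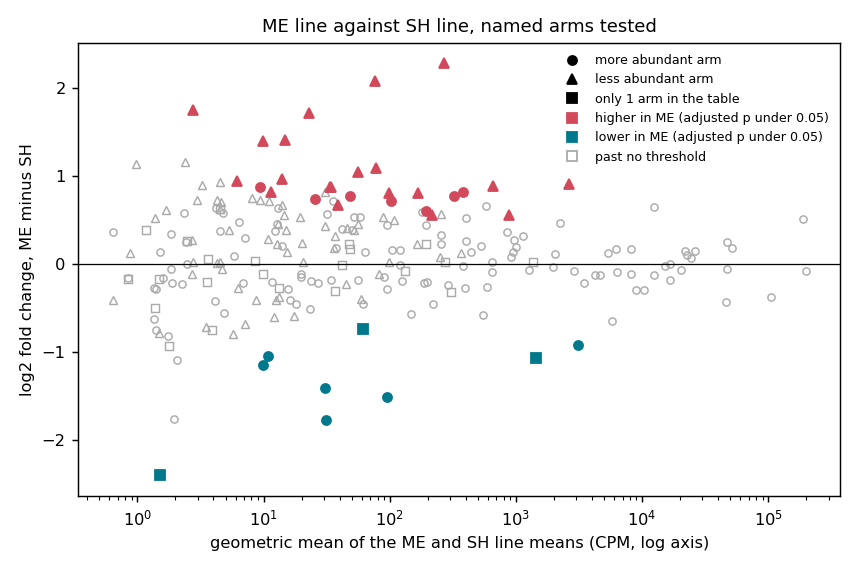
The log2 fold change of each of the 235 named arms tested, ME minus SH, against the geometric mean of the line means in CPM on a log axis. Triangles are minor arms, circles major arms and squares arms without a partner in the table, and filled symbols passed an adjusted p of 0.05. The filled triangles all lie above 0.

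The 9 arms lower in the ME line were led in size by miR-251, which stood at 0.993, 0.495 and 0.45 CPM in ME libraries 1 to 3 and at 3.11, 3.99 and 3.53 CPM in the SH libraries (log2 change -2.41 with SE 0.44, adjusted p = 0.00232 by edgeR). Its relative miR-252-5p stood at 12.7, 21.7 and 16 CPM in ME and 68.1, 44.7 and 60.0 CPM in SH (log2 change -1.78 with SE 0.25, adjusted p = 0.000748 by edgeR). Every ME library lay below every SH library for both arms. miR-251 is close to the detection floor, and it was not tested under a minimum count of 50. The miR-251 precursor lies between genes (chromosome X, 11004728 to 11004824, plus strand; WBcel235). The miR-252 precursor lies in an intron of W02B12.13, on the opposite strand (chromosome II, 11446863 to 11446960, minus strand).

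The next arm by size was miR-790-5p, a relative of the glial miR-228, with 42.5, 53.2 and 72.1 CPM in ME against 224, 121 and 135 CPM in SH (log2 change -1.52 with SE 0.28, adjusted p = 0.00232 by edgeR). The minor arm of the same hairpin, miR-790-3p, also lay lower in every ME library, at 3.85, 4.58 and 4.5 against 7.35, 6.05 and 9.02 CPM, and fell short of the threshold (log2 change -0.80 with SE 0.27, adjusted p = 0.0574 by edgeR). The mir-790 and mir-228 precursors are neighbours on the plus strand of chromosome IV, at 5566422 to 5566491 and 5562025 to 5562122. The glial miR-228-5p stood at 27860.1, 22378 and 24784 CPM in ME and 22736, 23870.5 and 25354 CPM in SH, with overlapping libraries and a log2 fold change of 0.06 (95% interval -0.28 to 0.40). The difference between the neighbours was not itself tested.

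miR-245-3p stood at 15.5, 18.8 and 22.3 CPM in ME and at 60.9, 43.4 and 46.3 CPM in SH (log2 change -1.41 with SE 0.21, adjusted p = 0.000758 by edgeR). The most abundant of the 9 was miR-246-3p, an arm detected mainly in the gonad and known for a part in lifespan, with 1583, 2651 and 2587 CPM in ME and 4889.8, 3988 and 4023 CPM in SH (log2 change -0.92 with SE 0.19, adjusted p = 0.0044 by edgeR). For each of them the lines were fully separated. miR-359, the only arm of its precursor in the table, was also abundant, at 687, 1207 and 1103 CPM in ME against 2211, 1947 and 2121 CPM in SH (log2 change -1.07 with SE 0.20, adjusted p = 0.00277 by edgeR). Its neighbour on the X chromosome, miR-785-3p, had overlapping libraries and a log2 fold change of -0.32 (95% interval -0.70 to 0.05).

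Among the scarcer arms, miR-76-3p stood at 5.46, 9.9 and 7.34 CPM in ME and 17.4, 16.1 and 13.5 CPM in SH (log2 change -1.05 with SE 0.24, adjusted p = 0.00889 by edgeR). miR-358-5p stood at 7.2, 5.2 and 7.49 CPM against 16.4, 16.1 and 11.6 CPM (log2 change -1.15 with SE 0.28, adjusted p = 0.0124 by edgeR). The smallest difference of the 9 was that of miR-1817, with 40.7, 62.7 and 39.9 CPM against 83.3, 65.6 and 90.4 CPM (log2 change -0.74 with SE 0.21, adjusted p = 0.0228 by edgeR). Libraries were separated for these arms as well, by the narrowest margin for miR-1817, whose call did not hold without ME library 1 or 3 or without SH library 1 or 3.

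**Figure D2:**
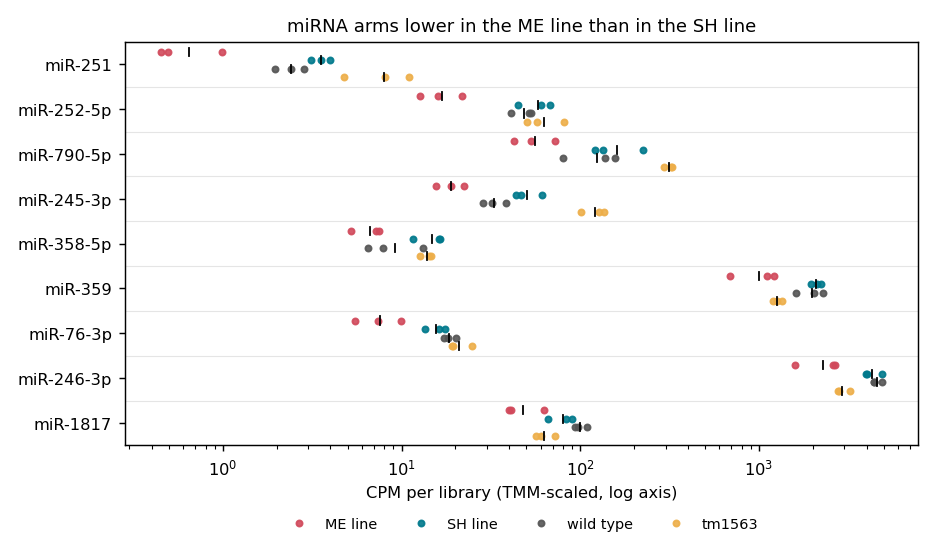
CPM per library, on a log axis, of the 9 arms lower in the ME line, with the 3 libraries of each genotype as points and the mean as a black tick. The ME points lie to the left of the SH points in all 9, and the wild-type points lie to the right of the ME points in all but miR-358-5p.

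Minor arms made up most of what was higher in ME. Of 80 minor arms tested 20 were higher and 0 lower by edgeR, where 35 had an unadjusted p under 0.05, 2 of them lower, and DESeq2 called 20 with 3 lower. Their median log2 fold change was 0.51. Of 130 major arms 7 were higher and 6 lower, with a median of -0.02, and the median over all named arms was 0.13. Of the 20 minor arms 15 came from the 5p side, among 48 minor 5p arms tested, and 5 from the 3p side, among 32. The count of minor arms higher was 10 with RLE size factors, 9 with library totals, 13 with the ME and SH libraries alone and 13 with no filter, and their median under RLE was 0.35, beside a median of all features of -0.03. Leaving out SH library 1 left 4, ME library 3 left 6, ME library 1 left 11 and SH library 3 left 12.

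The largest log2 fold change was that of miR-788-5p, at 1114, 315 and 359 CPM in ME and 88.4, 185 and 95.2 CPM in SH (log2 change 2.28 with SE 0.51, adjusted p = 0.0125 by edgeR). ME library 1 was high beyond the other ME libraries, and all 3 lay above the SH libraries. Without ME library 1 the estimate was 1.42, below that of let-7-3p in the same fit, 1.64. let-7-3p, the passenger of the larval timing miRNA let-7, stood at 231, 91.7 and 144 CPM in ME and 24.3, 62.2 and 24.7 CPM in SH (log2 change 2.07 with SE 0.51, adjusted p = 0.0197 by edgeR). The guide let-7-5p, which times the change from larva to adult, stood at 6089, 6389 and 7229 CPM against 5878, 6068 and 5576 CPM, with a log2 fold change of 0.17 (95% interval -0.14 to 0.48) that did not pass. Its precursor lies between genes (chromosome X, 14744173 to 14744271, minus strand). The calls of both minor arms were lost without SH library 1, without SH library 3 and with no filter on low counts, and the let-7-3p call without ME library 3 as well. Without SH library 2 the estimate for let-7-3p was 2.67.

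The minor arms that held in all settings were miR-44-5p, miR-61-5p and miR-83-5p. miR-44-5p stood at 59.2, 18.8 and 46.8 CPM in ME and 12, 14.3 and 11.6 CPM in SH (log2 change 1.72 with SE 0.34, adjusted p = 0.00335 by edgeR). miR-61-5p, from the hairpin whose major arm acts downstream of Notch signalling in the vulva, stood at 84.2, 60.5 and 95 CPM against 37.7, 43.9 and 34.8 CPM (log2 change 1.04 with SE 0.19, adjusted p = 0.00232 by edgeR). miR-83-5p stood at 33.3, 19.2 and 20.1 CPM against 10.6, 6.79 and 9.94 CPM (log2 change 1.40 with SE 0.26, adjusted p = 0.00232 by edgeR). All ME libraries were above all SH libraries for these arms, though ME library 2 was the lowest ME library in each. The mir-61 precursor lies at chromosome V, 11770060 to 11770156, minus strand, and that of mir-83 at chromosome IV, 7841631 to 7841728, plus strand.

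In the mir-58 family, the worm relatives of the growth regulator bantam of flies, 3 of the 4 minor arms tested were higher. All 4 are 5p arms, and over all precursors 20 of 80 minor arms and 15 of 48 minor 5p arms were higher. miR-58a-5p stood at 147, 114 and 127 CPM in ME and 61.4, 99.1 and 61.3 CPM in SH (log2 change 0.81 with SE 0.20, adjusted p = 0.0144 by edgeR), miR-82-5p at 47.3, 43.7 and 45.4 against 23.3, 24.1 and 27.1 CPM (log2 change 0.87 with SE 0.18, adjusted p = 0.0044 by edgeR) and miR-80-5p at 930.0, 1011 and 1250.2 against 677, 795 and 697 CPM (log2 change 0.56 with SE 0.17, adjusted p = 0.0309 by edgeR). The libraries were separated for each. The fourth, miR-81-5p, stood at 15.3, 12.9 and 14.2 CPM in ME and 8.34, 6.79 and 10.6 CPM in SH, also separated but short of the threshold (log2 change 0.72 with SE 0.26, adjusted p = 0.0837 by edgeR). The call of miR-82-5p was lost without SH library 1, and that of miR-58a-5p without ME library 1 or 3, without SH library 1 or 3 and in the 6 libraries alone. miR-80-5p passed in 4 of the 14 alternative settings and was lost with RLE size factors, with library totals, with no filter, under DESeq2 (adjusted p = 0.0956), in the 6 libraries alone, with the replicate block (adjusted p = 0.0608 by edgeR) and without ME library 2 or 3 or SH library 1 or 3. The major arms of this family are among the most abundant miRNAs of the worm and were not called. miR-58a-3p stood at 85345, 94037 and 96744 CPM in ME and 115046, 141431 and 103387 CPM in SH, and miR-82-3p at 31711, 45699.7 and 42566 and 53114, 61014 and 47558 CPM. For both the ME libraries lay below the SH libraries without passing edgeR's threshold (log2 fold change -0.38 and -0.43, adjusted p = 0.199 and 0.187), while DESeq2 gave each an adjusted p of 0.0459 and 0.0459. Related arms of this family may share reads, and how alike their sequences are was not examined here.

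The other minor arms higher in ME ranged from miR-42-5p, at 9.44, 1.98 and 3.9 CPM against 1.12, 1.33 and 2.09 CPM, to miR-77-5p, at 3271, 3364 and 4205 CPM against 1846, 2208 and 1716 CPM. miR-42-5p had the only overlapping libraries among the calls and rested on few counts (log2 change 1.75 with SE 0.52, adjusted p = 0.0309 by edgeR). Its call was lost without ME library 1 or 3 or SH library 1 or 2, and its estimate without ME library 1 was 0.88. miR-77-5p was fully separated (log2 change 0.91 with SE 0.24, adjusted p = 0.0178 by edgeR). miR-86-3p, with 831, 754 and 1073 against 469, 554 and 419 CPM, was likewise separated (log2 change 0.88 with SE 0.18, adjusted p = 0.00368 by edgeR). The remaining members were miR-67-5p, miR-237-3p (the passenger of a lin-4 relative), miR-74-5p, miR-236-5p, miR-246-5p, miR-235-5p (from the hairpin of a miRNA that acts in the nutritional arrest of L1 larvae), miR-229-3p, miR-228-3p and miR-54-5p. Their differences lay between 0.56 for miR-54-5p and 1.40 for miR-67-5p on the log2 scale.

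Among them, miR-67-5p stood at 23.7, 12 and 12.3 CPM in ME and 4.98, 5.91 and 7.32 CPM in SH (log2 change 1.40 with SE 0.34, adjusted p = 0.0125 by edgeR), and its call was lost without ME library 1 or SH library 1. miR-237-3p stood at 151, 63.6 and 125 CPM against 45.3, 58.6 and 56.1 CPM (log2 change 1.09 with SE 0.29, adjusted p = 0.0197 by edgeR), while its major arm miR-237-5p had overlapping libraries at 5344, 4054 and 3904 and 4084, 5371 and 5027 CPM. miR-229-3p stood at 242, 192 and 224 CPM against 138, 107 and 134 CPM (log2 change 0.80 with SE 0.17, adjusted p = 0.00509 by edgeR). ME libraries lay above SH libraries in each, with miR-237-3p closest to touching. miR-228-3p, the partner of the glial miR-228-5p, stood at 50.9, 42.9 and 52.4 CPM in ME and 36.7, 24.2 and 30.7 CPM in SH (log2 change 0.67 with SE 0.19, adjusted p = 0.0252 by edgeR). miR-235-5p stood at 15.4, 14.6 and 15.7 CPM against 7.6, 7.53 and 10.7 CPM, and miR-74-5p at 18.9, 15.5 and 24.1 CPM against 11.6, 9.89 and 8.5 CPM. miR-236-5p was even across the ME libraries, at 8.44, 8.79 and 8.54 CPM, against 4.36, 3.84 and 5.23 CPM in SH. miR-54-5p stood at 227, 250.4 and 309.6 CPM in ME and 181, 195 and 159 CPM in SH, and it was 1 of 5 called arms that DESeq2 did not call. The lines were separated in these arms too, and the calls of miR-228-3p, miR-235-5p, miR-74-5p and miR-236-5p were each lost without ME library 1, without ME library 3 and without SH library 1. Single libraries also decided the calls of miR-54-5p and miR-77-5p (lost without ME library 3 or SH library 1 or 3), miR-237-3p and miR-246-5p (ME library 1 or 3 or SH library 1), miR-86-3p (ME library 3 or SH library 1) and miR-229-3p (ME library 3).

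Of the major arms 7 were higher. miR-243-3p, known for its loading into the Argonaute RDE-1 of the RNA interference pathway, stood at 548, 455 and 503 CPM in ME and 245, 325 and 285 CPM in SH (log2 change 0.82 with SE 0.17, adjusted p = 0.00453 by edgeR). miR-240-5p stood at 523, 376 and 365 CPM against 224, 209.7 and 308 CPM (log2 change 0.77 with SE 0.19, adjusted p = 0.0141 by edgeR). All ME libraries lay above all SH libraries for both. miR-1022-5p stood at 288, 211 and 214 CPM against 149, 154 and 168 CPM (log2 change 0.60 with SE 0.16, adjusted p = 0.0204 by edgeR). miR-789-5p stood at 64.4, 60.3 and 64.9 CPM against 36.1, 35.9 and 39.2 CPM, and miR-230-3p at 172, 97.3 and 119.9 CPM against 90.4, 70.4 and 76.8 CPM. The scarcest were miR-4816-5p, at 38.2, 25.6 and 34.8 CPM against 18.7, 20.4 and 20.3 CPM, and miR-2210-3p, at 15.9, 9.9 and 12.1 CPM against 6.85, 5.91 and 7.85 CPM. These 5 arms were also separated between the lines, with log2 fold changes between 0.60 for miR-1022-5p and 0.88 for miR-2210-3p. miR-789 has several copies in the genome, so its reads cannot be placed, and the calls of miR-230-3p and miR-2210-3p were lost under DESeq2. Without SH library 1 the calls of all 7 were lost, and without ME library 3 those of all but miR-243-3p and miR-240-5p.

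**Figure D3:**
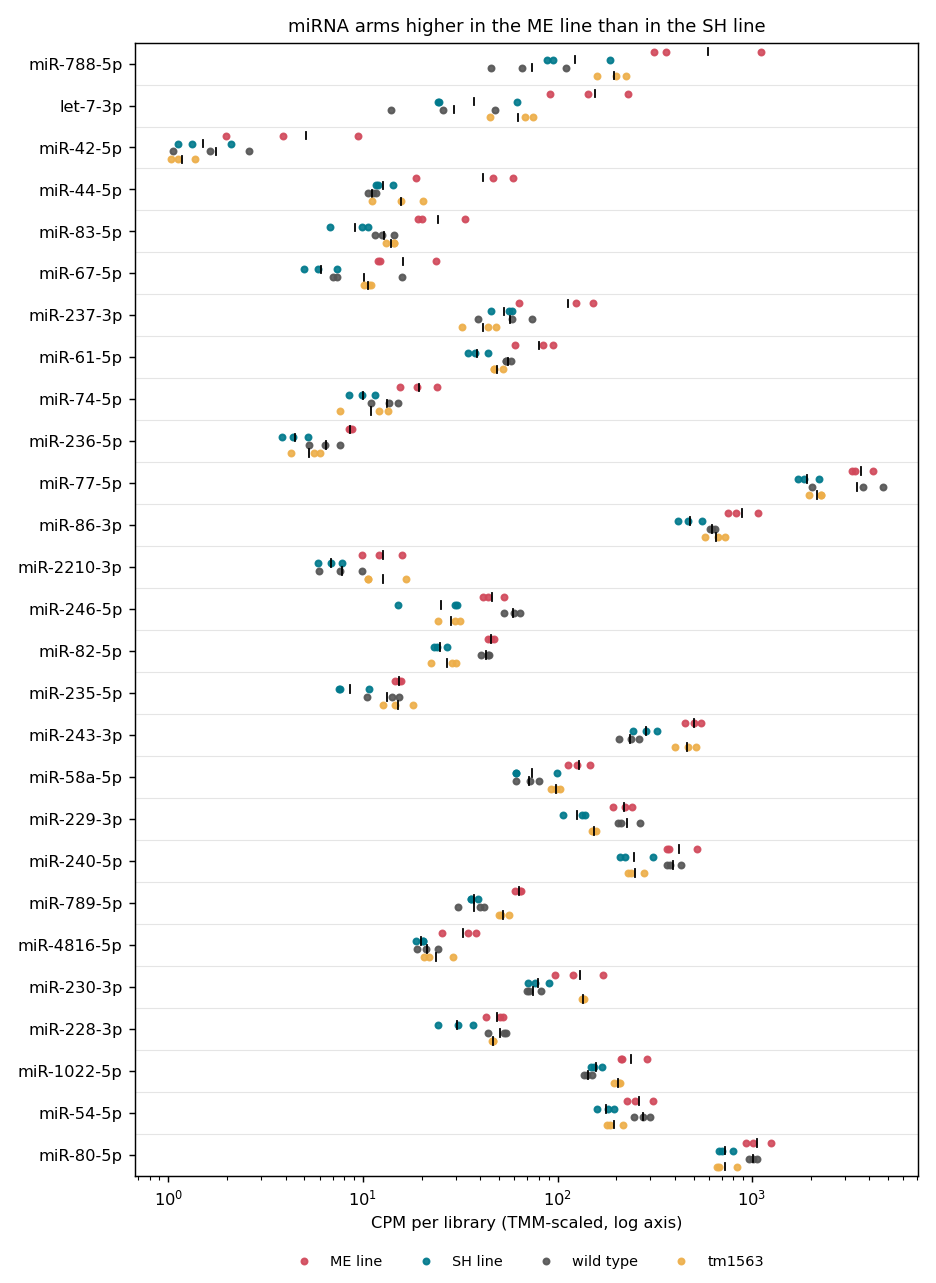
CPM per library, on a log axis, of the 27 arms higher in the ME line, ordered by log2 fold change, with the 3 libraries of each genotype as points and the mean as a black tick. The ME points lie to the right of the SH points for 26 arms and overlap them for miR-42-5p, and the highest arm, miR-77-5p, reaches 4205 CPM in ME.

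The balance of the arms within a hairpin does not depend on library scaling, and was compared in a test added after the data were seen. It models the minor and major counts of each library together and asks whether their ratio differs between the lines. Among 80 precursors with both arms tested, the ratio differed in 19 (23.8%), toward the minor arm in ME in 17 (21.2%) and away from it in 2, by edgeR's quasi-likelihood test with Benjamini-Hochberg adjustment over the 80. The estimate was positive in 59 precursors and negative in 21, with a median of 0.41 on the log2 scale. A limma test on log2 arm ratios called 17. The count fell to 4 without ME library 1, to 4 without SH library 1, to 6 without SH library 2 and to 12 in the 6 libraries alone.

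Precursors with both arms called in the same direction numbered 0 by edgeR. That count rests on the threshold. The arms of mir-4816 had like log2 fold changes, 0.74 for the minor and 0.73 for the major arm, and only the major arm passed. In 19 precursors the minor arm was higher with no call for its major arm, in 5 the major arm was higher and in 2 lower with no call for the minor arm, and in 53 neither was called. A call for the minor arm alone is not a difference between the arms. In 6 precursors the minor arm was called and the balance was not, as in mir-80 (log2 difference of the minor to major ratio 0.29, SE 0.24, edgeR adjusted p = 0.381). The precursor of mir-246, which lies at chromosome IV, 10940134 to 10940230, plus strand, was the 1 with opposite calls. There miR-246-5p stood at 43.8, 41.5 and 53.3 CPM in ME and 29.9, 15.1 and 30.3 CPM in SH (log2 change 0.88 with SE 0.24, adjusted p = 0.0213 by edgeR), while miR-246-3p was lower as given above. The minor arm made up 2.69, 1.54 and 2.02% of the counts of the hairpin in the ME libraries and 0.607, 0.376 and 0.749% in the SH libraries (log2 difference of the minor to major ratio 1.88, SE 0.30, edgeR adjusted p = 0.00073). Wild type lay between them, at 1.2, 1.34 and 1.29%.

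The balance also differed in all 10 alternative settings for mir-58a, mir-61 and mir-82. The minor arm of mir-61 held 1.28, 0.736 and 1.01% in ME and 0.332, 0.482 and 0.381% in SH (log2 difference of the minor to major ratio 1.33, SE 0.27, edgeR adjusted p = 0.0039). For mir-58a it held 0.172, 0.121 and 0.131% in ME and 0.0533, 0.07 and 0.0593% in SH (log2 difference of the minor to major ratio 1.21, SE 0.23, edgeR adjusted p = 0.00254), and for mir-82 0.149, 0.0955 and 0.107% and 0.0438, 0.0394 and 0.0569% (log2 difference of the minor to major ratio 1.32, SE 0.28, edgeR adjusted p = 0.00439). In each of these hairpins the ME libraries lay wholly above the SH libraries. In let-7 the minor arm held 3.65, 1.41 and 1.96% in ME and 0.411, 1.01 and 0.441% in SH (log2 difference of the minor to major ratio 1.95, SE 0.47, edgeR adjusted p = 0.0111).

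Minor and major are close to equal in some hairpins. The 5p arm of mir-788 held 63.3, 43.1 and 49.3% of its hairpin's counts in the ME libraries and 22.9, 40.0 and 18.2% in the SH libraries, so it was the more abundant arm in ME library 1 (log2 difference of the minor to major ratio 1.62, SE 0.42, edgeR adjusted p = 0.0138). The 5p arm of mir-77 held 59.7, 48.9 and 52.2% in ME and 34, 33.4 and 35.3% in SH, and that of mir-67 55.2, 46.2 and 50.6% and 28.6, 31.5 and 34.4%. Both calls away from the minor arm were in mir-240, where it held 18.2, 18.7 and 20.7% in ME and 29.8, 30.8 and 25.6% in SH, and in mir-5592, where it held 23.5, 26.2 and 31% and 38.1, 40.6 and 32.5%. In both of these every ME library lay below every SH library. mir-5592 has several copies in the genome, so its arm counts may pool more than 1 hairpin. The other balance calls were mir-250, mir-44, mir-237, mir-85, mir-235, mir-74, mir-83, mir-238 and mir-236. In 16 of the 17 calls toward the minor arm every ME library lay above every SH library. The exception was mir-83, where the minor arm held 18.7% in ME library 2 and 19.2% in SH library 3. Apart from mir-246, mir-58a, mir-61 and mir-82, each of the 15 other balance calls was lost without ME library 1 and without SH library 1, and all but let-7 and mir-788 also without SH library 2. Without ME library 2 those of mir-240, mir-5592, mir-238 and mir-236 were lost, and without ME library 3 those of mir-237, mir-74, mir-83, mir-238 and mir-236.

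**Figure D4:**
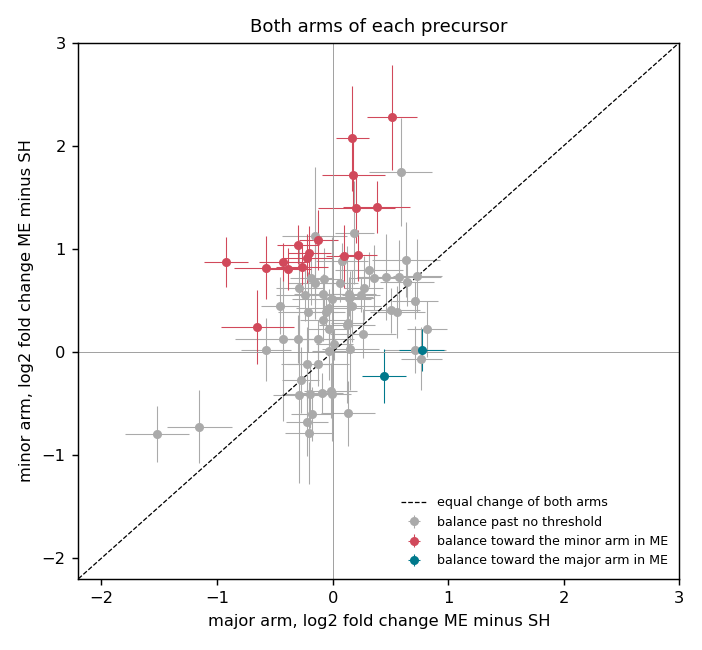
The log2 fold change (ME minus SH) of the minor arm against that of the major arm for 80 precursors, with SE bars. Points above the dashed line have a ratio shifted toward the minor arm in ME, and the 17 red points passed the balance test in that direction, against 2 in the other.

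The arm ratio was also summarised per library. Each precursor's log2 ratio of minor to major arm was centred on its mean over the 12 libraries (pseudocount 0.5 CPM), and the median over precursors was 0.30, 0.20 and 0.24 in ME and -0.21, -0.23 and -0.06 in SH. The ME mean was 0.25 ± 0.05 and the SH mean -0.17 ± 0.09 (SD, n = 3), a difference of 0.42. No ME library overlapped an SH library, and the exact two-sided permutation test gave p = 0.1, the smallest that 3 against 3 allows. Wild type stood at 0.02, 0.14 and 0.09 and tm1563 at -0.15, -0.06 and -0.03. The share of all counts in minor arms was 0.895 to 1.02% in ME, 0.589 to 0.620% in SH, 0.557 to 0.955% in wild type and 0.630 to 0.742% in tm1563.

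**Figure D5:**
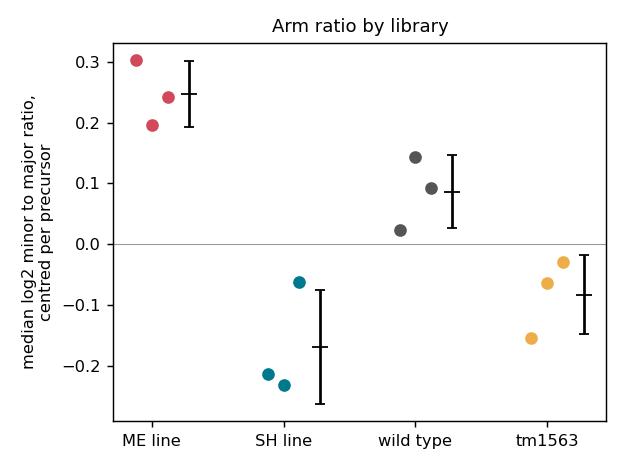
The per-library median of the centred log2 minor to major arm ratio in the 4 genotypes, with each library as a point and the mean ± SD (n = 3) as a black bar. The 3 ME libraries lie above all 9 others.

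Each line was also set against wild type in the same fit. These comparisons share libraries, so their values are given side by side. The arms were picked by their difference between these same ME and SH libraries, so counts of them called against wild type are no separate evidence. The share of all features called against wild type is not given here. Of the 9 arms lower in ME, edgeR called 8 lower in ME than in wild type, while between SH and wild type the adjusted p of the 9 lay between 0.183 and 0.913. For miR-252-5p the log2 fold change against wild type was -1.53 (SE 0.25, edgeR adjusted p = 0.00202) in ME and 0.25 (SE 0.24, edgeR adjusted p = 0.667) in SH. The exception was miR-358-5p, at -0.45 (SE 0.28, edgeR adjusted p = 0.286) in ME and 0.70 (SE 0.27, edgeR adjusted p = 0.222) in SH. The tm1563 mutant lay above both isoform lines in 5 of the 9 and between them in 4. In miR-245-3p it stood at 101, 128 and 135 CPM, above wild type at 32, 38.2 and 28.5 CPM and above both lines, and in miR-790-5p at 294, 320.3 and 327 CPM against 80.4, 137 and 156 CPM in wild type.

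The 27 arms higher in ME were divided. The wild-type mean lay between the lines for 16 (nearer ME in 7, nearer SH in 9), below both for 7 and above both for 4. Over all 235 named arms it lay between them nearer ME in 45 and nearer SH in 46, below both in 75 and above both in 69. A wider gap between the lines leaves more room for another mean to fall between them. edgeR called 10 higher in ME than in wild type and 3 lower in SH than in wild type, and 14 in neither comparison. miR-788-5p, for which wild type stood at 110.3, 65.7 and 45.7 CPM, had a log2 fold change against wild type of 3.02 (SE 0.53, edgeR adjusted p = 0.00418) in ME and 0.74 (SE 0.49, edgeR adjusted p = 0.519) in SH. In miR-246-5p, with wild type at 53.2, 59.7 and 64 CPM, the values were -0.35 (SE 0.24, edgeR adjusted p = 0.316) in ME and -1.23 (SE 0.24, edgeR adjusted p = 0.00881) in SH. miR-82-5p and miR-229-3p were the other arms called lower in SH than in wild type. The tm1563 mutant lay between the isoform lines for 23 of the 27. The places of tm1563, here and for the arms lower in ME, were not counted over all named arms.

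The authors' deposited tables of each line against wild type list 41 features for ME and 12 for SH. Of the 36 arms that differed between the lines, 17 are listed for ME and 7 for SH in the authors' deposited tables, 0 in both and 12 in neither. The last include miR-61-5p, miR-86-3p and miR-77-5p. For miR-252-5p the authors' deposited table gives a log2 fold change of -1.47 in ME against wild type.

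The listed markers of tissues and stages did not pass the threshold, apart from the gonad arm miR-246-3p. The gonad and intestine list holds miR-240-3p (log2 change 0.02 with SE 0.20) and miR-786-3p (log2 change -0.56 with SE 0.32, adjusted p = 0.267 by edgeR). The partner arm of miR-240-3p, miR-240-5p, outside the list, was higher in ME as given above. The neuron marker miR-791-3p had a log2 change of 0.36 with SE 0.80, too imprecise to show whether the lines differ. Of the heterochronic arms that mark larval progress, let-7-5p, miR-48-5p, miR-84-5p, miR-241-5p, lin-4-5p and miR-237-5p gave 0 of 6 calls by edgeR, 0 at an unadjusted p under 0.05 and 0 by DESeq2. Over all 250 features edgeR called 14.4%, and 13 of 130 major arms. At those shares 0 of 6 cannot show that the lines were alike in stage. lin-4-5p, which ends the first larval stage program, stood at 902, 1240.5 and 1607 CPM in ME and 1032, 1998 and 902 CPM in SH, and its log2 fold change was -0.07 (95% interval -0.69 to 0.55). miR-48-5p stood at 45944, 43525 and 49673 and 44009, 52401 and 48235 CPM, with overlapping libraries. In the mir-35 family, which is needed in embryos and is made in the germ line, 0 of 8 passed edgeR's threshold, beside the same 14.4%. There 1 (miR-42-3p, with a log2 fold change of 0.59) had an unadjusted p below 0.05, and DESeq2 called another, miR-39-3p, lower.

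Muscle miR-1-3p stood at 125350.0, 208072 and 242942 CPM in ME and 202739, 236028 and 173371 CPM in SH, where ME library 1 was the lowest of the 6, and its log2 fold change was -0.09 (95% interval -0.62 to 0.44). miR-124-3p of ciliated sensory neurons stood at 2.73, 2.48 and 3.45 CPM and 2.12, 2.36 and 1.31 CPM, and lsy-6-3p, which sets the identity of a single taste neuron, at 1.99, 0.866 and 1.05 and 3.61, 1.62 and 1.7 CPM. At these levels the intervals were wide, from -0.59 to 1.74 for miR-124-3p and from -1.97 to 0.32 for lsy-6-3p. miR-57-5p of posterior cells stood at 23232, 12925 and 10289.9 CPM in ME and 8485, 9789 and 11474 CPM in SH, with ME library 1 the highest and the lines overlapping (log2 change 0.64 with SE 0.23, adjusted p = 0.0815 by edgeR). The part of tissue makeup in the differences above was not tested.

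The family lists take a single arm of each precursor, usually the major arm. Called arms from the other side of these hairpins, such as miR-58a-5p, let-7-3p and miR-83-5p, lie outside them. Among the listed arms, both members of the mir-251 and mir-252 family were lower, and 1 of 3 in the mir-228 family, miR-790-5p. The 11 other lists held 46 arms tested, and of these edgeR called 0, with 2 at an unadjusted p under 0.05, while DESeq2 called 5, all lower. They were the families of mir-58 (2 of the 5 DESeq2 calls, given above), mir-35, mir-72, mir-49 with mir-83, let-7, lin-4, mir-44, mir-51, mir-64 and mir-238 with mir-239, and the mirtrons. miR-45-3p, whose mature sequence is the same as that of miR-44-3p, is not among the features, so the miR-44-3p count, and with it the balance of mir-44, may pool both precursors, and miR-58b-3p and miR-1019-5p had too few counts to be tested. Between the lines 0 of the 18 arms with a mean of 10000 CPM or more were called by edgeR, 1 of them at an unadjusted p under 0.05, and DESeq2 called 3. Beside 36 of 235 named arms in all, 4 of 70 were called below 10 CPM, 18 of 78 at 10 to 100 CPM, 11 of 49 at 100 to 1000 CPM and 3 of 20 at 1000 to 10000 CPM.

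Precursors whose starts lie within 10 kb on 1 strand were taken as a cluster. In the cluster of mir-42, mir-43 and mir-44 on chromosome II both 5p arms tested were higher, miR-42-5p and miR-44-5p, and the major arms stood short of edgeR's threshold (adjusted p from 0.186 to 0.708), with log2 fold changes of 0.59, 0.47 and 0.18. In that of mir-61 and mir-250 on chromosome V, miR-250-5p had a log2 fold change of 0.82 (adjusted p = 0.0837) beside the called miR-61-5p, and both major arms had negative estimates, -0.30 and -0.58, short of edgeR's threshold. In that of mir-240 and mir-786 on the X chromosome, miR-240-5p was higher, while miR-786-3p, known for its part in the defecation rhythm, stood at 3.6, 3.96 and 4.5 and 6.23, 3.84 and 7.59 CPM with overlap. Against 36 of 235 named arms called in all, by position 24 of 134 arms between genes were called, 10 of 95 in introns and 2 of 6 in UTRs, and by chromosome the counts ran from 2 of 22 on V to 9 of 36 on IV, with no test of either split.

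The arms next past the threshold were miR-1-5p, miR-238-5p, miR-71-3p, miR-57-3p and miR-790-3p, all minor arms. miR-1-5p, the passenger of the muscle miRNA, stood at 316, 301 and 319 CPM in ME and 171, 260.3 and 202 CPM in SH (log2 change 0.57 with SE 0.19, adjusted p = 0.052 by edgeR). miR-71-3p, from the hairpin of a miRNA known for its part in lifespan, stood at 112, 111 and 93.5 and 78.6, 61.3 and 80.4 CPM (log2 change 0.53 with SE 0.18, adjusted p = 0.0564 by edgeR). The ME libraries lay above the SH libraries for both, while the major arm miR-71-5p had a log2 fold change of 0.14 (95% interval -0.33 to 0.61).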

How the data were processed

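The authors deposited whole-number read counts per mature miRNA arm, with no normalization, for 12 libraries of whole L4 larvae, and comparison tables of each line against wild type. In those, per the file headers, the authors give for each listed feature the group means of normalized read counts, which are a signal. The same deposited tables hold log2 fold changes, and p-values before and after adjustment. Bowtie, DESeq2 and the build WBcel235 are named, without versions, per the submitters' processing notes. The counting of reads that map to several places is not given in the sources used here. Library columns left unmapped numbered 0. The 12 libraries held 6946205 to 12053039 counts. Members and lists were chosen with earlier results of these data known.

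All 471 features entered edgeR 4.0.16 (R 4.3.3). filterByExpr (minimum count 10, minimum total 15) kept 250 of them, leaving 0.00490% of the counts in the 221 untested. TMM scaling and 1 robust quasi-likelihood fit with 1 mean per genotype gave each contrast, with Benjamini-Hochberg adjustment over 250 features, a threshold of 0.05, SE as the size over the square root of F, and 95% intervals. The 95% intervals come from the quasi-likelihood fit and so include the spread between libraries. The floor of 3 counts concerns counting alone, and reads have no molecular identifiers. The arm-balance test, added after the data were seen, was an edgeR fit on minor and major counts with library effects and a minor-arm effect per genotype. DESeq2 1.42.0 and limma 3.58.1 gave alternatives. Both procedures were run on simulated counts with the same spread for every feature and no outlying library. That run does not cover calls that rest on single libraries. Precursor positions are from the Ensembl WBcel235 annotation, where 370 names matched and 10 have several copies. All arms past the threshold, their partner arms and cluster neighbours, the 5 next arms, the 5 most abundant arms and the listed families and markers were eligible for naming, and those that add nothing were left out. Seed groups and hairpin motifs were not analysed here.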

Additional observations from a re-analysis of the deposited data

How the results depend on the processing

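The cause of the moves below was not tested. Calls between the lines numbered 36 (27 higher and 9 lower in ME). With RLE size factors 12 were higher, and 10 minor arms were higher and 1 lower with a minor-arm median of 0.35. With library totals there were 18 calls, 10 higher, 9 of them minor arms. With no filter 16 were higher, 13 of them minor arms, with a median of 0.26. A minimum count of 50 gave 1 minor arm lower, and DESeq2 gave 21 arms lower, 3 of them minor, with a median of 0.35. In the 6 libraries alone 15 were higher, 13 of them minor arms, and 12 precursors passed the balance test. Leaving out single libraries, wild-type library 1 included, gave 12 to 41 calls, 4 to 30 higher, 4 to 23 minor arms higher, 0 to 2 minor arms lower, a minor-arm median of 0.32 to 0.55, 4 to 24 precursors past the balance test and 4 to 21 toward the minor arm. The per-library arm ratio difference stayed between 0.38 and 0.48, and no called arm reversed. Low counts limit arms such as miR-251 and miR-42-5p most.

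Deviations from the line mean in same-numbered ME and SH libraries correlated at -0.30, 0.05 and -0.53, and 1 of 3 ME libraries correlated best with its own number. The highest values were between unlike numbers, 0.50 for ME library 1 with SH library 3 and 0.37 for ME library 3 with SH library 1. Centring within 3 libraries ties these values together, and a shared preparation was not tested. With the replicate block there were 35 calls, 25 higher and 10 lower.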
